A study of Mus musculus with 14 samples.

Results

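The CYP2 family of cytochromes P450 was followed through 14 mouse RNA-seq libraries. Its members were taken from the gene symbols alone, as every gene named *Cyp2* followed by 1 subfamily letter and a number. This gave 48 genes of the 28022 in the count table, in 13 subfamilies. The largest subfamilies were CYP2C with 15 genes, CYP2D and CYP2J with 8 each, CYP2B with 5 and CYP2A with 4, whereas CYP2E, CYP2F, CYP2G, CYP2R, CYP2S, CYP2T, CYP2U and CYP2W had 1 gene each. The rule left out 22 other *Cyp2* symbols, of which 21 carry a pseudogene suffix.

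The study converted mouse embryonic fibroblasts (MEFs) of C57BL/6J embryos into induced hepatic stem cells (iHepSCs) with *Oct4* and *Hnf4α*, and asked whether 3D culture and induced endothelial cells (iECs) mature them. Each of 7 conditions had 2 libraries: MEFs, iHepSCs in 2D (2D-iHs), iHepSCs with iECs in 2D (2D-iHEs), liver organoids of iHepSCs (iHLOs, labelled 3D-iHA), assembloids of iHepSCs with iECs (iHEAs), adult liver and mid-gestation fetal liver, all labelled C57BL/6J. All 4 cultures carried the conversion factors, and 2D-iHEs and iHEAs also held iECs made from a human fibroblast line with *ETV2*, so that only the iHepSCs are mouse cells and human reads count only where they align to mouse genes. The methods give adult liver from 6-week-old mice under qRT-PCR, and give no age under RNA-seq. Neither the number of animals nor the number of independent iHepSC lines behind a library is given in the labels. Every label reads replicate 1.

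Cytochromes P450 are heme enzymes of the endoplasmic reticulum that insert an oxygen atom into their substrate with electrons passed on by P450 reductase. In liver, the CYP2A, CYP2B, CYP2C, CYP2D and CYP2E enzymes oxidize drugs, steroids and fatty acids, and most of them become abundant in hepatocytes around and after birth. Other members act mainly outside the liver, such as *Cyp2s1* in surface epithelia, or serve 1 defined step, such as *Cyp2r1*, the vitamin D 25-hydroxylase. In mice the large subfamilies lie in clusters of closely related neighbours, here CYP2J on chromosome 4, CYP2A and CYP2B on chromosome 7, CYP2D on chromosome 15 and CYP2C on chromosome 19.

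Total counts ranged from 20851489 to 35143325, so that 3 counts, taken as the limit that a count of 0 allows, correspond to 0.0854 to 0.144 CPM, the count scaled to a common library total. Counting intervals and this limit cover counting error only. The 2 libraries of a condition differed by more than sampling noise in every condition, with a chi-square statistic per gene of 2.93 to 3.49 in MEFs, 2D-iHs, 2D-iHEs, iHLOs and adult liver, of 10.9 in iHEAs and of 12.7 in fetal liver, where noise alone gives 1. Nothing says that they came from separate cultures or animals, so the p-values measure only the spread between these libraries, which may be technical. The number of 1 iHEA library could not be taken from its column name, and it is called the iHEA library without a number. In adult liver, *Alb* took 23.6% and 22.5% of all counts, against which the scaling of the fits (TMM) moved log2 fold changes away from those of CPM by 1.45 for adult against fetal liver and by 1.40 for iHLOs against adult liver, in both cases towards higher values in adult liver. Among 8 hepatocyte markers, all 8 were detected in adult liver and 7 in fetal liver, but 2 to 5 in the cultures, where *Alb* stayed between 2 and 210 counts.

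A gene was counted as detected in a condition when both libraries had more than 3 counts. By this measure, 36 of the 48 genes were detected in adult liver, 20 in fetal liver, 18 in iHLOs, 15 in iHEAs, 8 in MEFs, 6 in 2D-iHs and 5 in 2D-iHEs. For comparison, 51.3% of all 28022 genes were detected in adult liver, 58% in fetal liver, 49.9% in iHLOs, 49.6% in iHEAs, 52.4% in MEFs, 50% in 2D-iHs and 49.2% in 2D-iHEs, so that the family changed between conditions while the share over all genes moved little. Detection at 1 CPM in both libraries left 33 genes in adult liver, 10 in fetal liver, 10 in iHLOs, 11 in iHEAs and 3 in each of MEFs, 2D-iHs and 2D-iHEs.

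**Figure D1:**
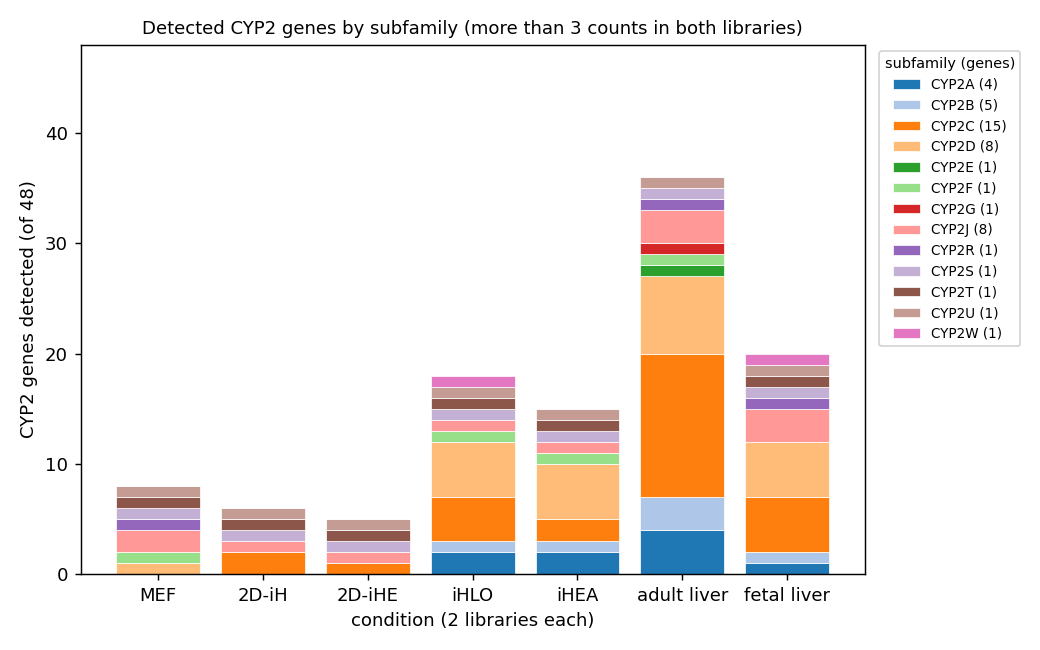
Bars give the number of CYP2 genes with more than 3 counts in both libraries of each condition (vertical axis, of 48), split by subfamily (colour, with the number of genes of the subfamily in brackets). Adult liver reached 36, iHLOs 18 and 2D-iHs 6, and the CYP2D segment of 5 genes and the CYP2A segment of 2 in both 3D bars are absent from both 2D bars.

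By subfamily, the 2 organoid conditions differed from 2D mainly in CYP2D, with 5 of 8 genes detected in both iHLOs and iHEAs and 0 in both 2D conditions, and in CYP2A, with 2 of 4 genes against 0. CYP2C had 13 of 15 genes in adult liver, 5 in fetal liver, 4 in iHLOs, 2 in iHEAs, 2 in 2D-iHs and 1 in 2D-iHEs. CYP2B had 3 of 5 genes in adult liver and 1 in each of fetal liver, iHLOs and iHEAs. In CYP2J, 3 of 8 genes were detected in adult and fetal liver, 2 in MEFs and 1 in every culture, which was *Cyp2j6* each time. *Cyp2e1* and *Cyp2g1*, the latter known from olfactory mucosa, were detected only in adult liver of these 7 conditions. *Cyp2j6*, *Cyp2s1* and *Cyp2u1* were detected in all 7 conditions.

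Of the 48 genes, 7 were detected in no condition, namely *Cyp2b19*, *Cyp2b23*, *Cyp2c66*, *Cyp2j7*, *Cyp2j8*, *Cyp2j11* and *Cyp2j12*, and *Cyp2j7* had no count in any library. A further 12 genes were detected in adult liver and nowhere else: *Cyp2a22*, *Cyp2b9*, *Cyp2c29*, *Cyp2c38*, *Cyp2c39*, *Cyp2c40*, *Cyp2c50*, *Cyp2c54*, *Cyp2c69*, *Cyp2d40*, *Cyp2e1* and *Cyp2g1*. The 10 genes detected in both 3D conditions and in neither 2D condition were *Cyp2a4*, *Cyp2a5*, *Cyp2b10*, *Cyp2c55*, *Cyp2d9*, *Cyp2d10*, *Cyp2d12*, *Cyp2d26*, *Cyp2d34* and *Cyp2f2*. Of the 18 genes detected in iHLOs, 14 (77.8%) were also detected in adult liver, which is 38.9% of the 36 detected there.

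**Figure D2:**
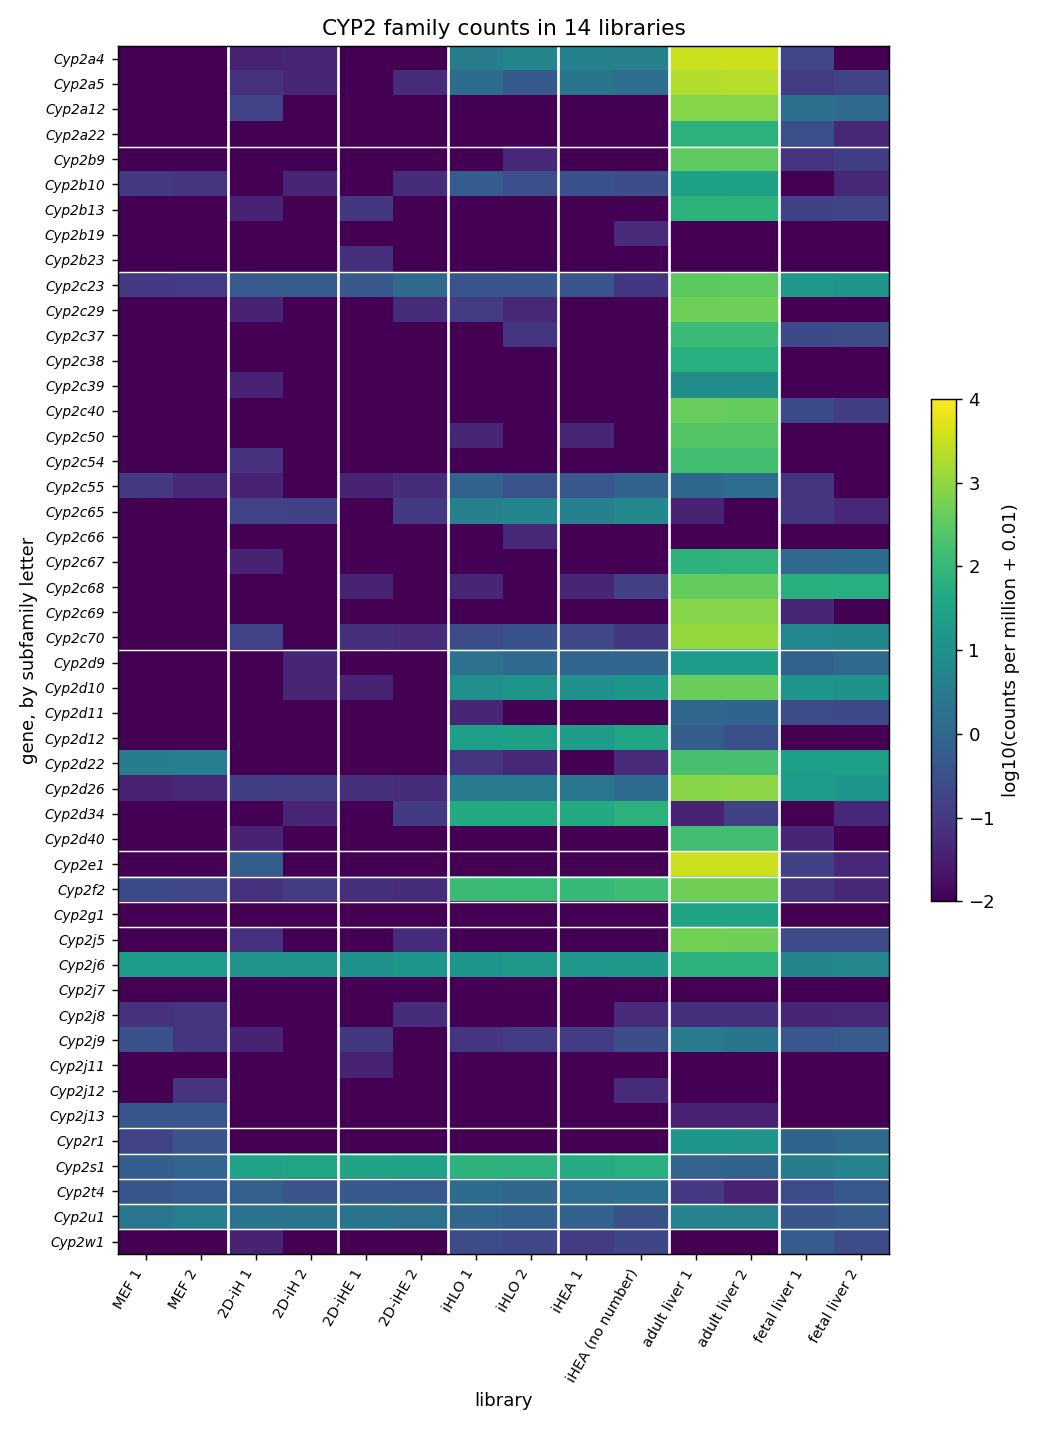
Rows are the 48 CYP2 genes in order of subfamily and columns the 14 libraries in order of condition; the colour is log10(CPM + 0.01), and thin white lines part the subfamilies and conditions. The bright block of CYP2A and CYP2C genes stands in the adult liver columns, whereas *Cyp2d12*, *Cyp2d34* and *Cyp2f2* are bright in the 4 organoid and assembloid columns and dark in the 4 columns of 2D culture.

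The family as a whole took 0.0048% of the counts in 2D-iHs and 0.0047% in 2D-iHEs, 0.0305% in iHLOs, 0.0311% in iHEAs, 0.0157% in fetal liver and 1.73% in adult liver. As summed CPM this was 48.3 ± 1.48 (SD, n = 2) in 2D-iHs, 47.1 ± 0.426 in 2D-iHEs, 305 ± 10.6 in iHLOs, 311 ± 60.2 in iHEAs, 157 ± 9.66 in fetal liver, 29.0 ± 0.976 in MEFs and 17271.8 ± 213 in adult liver. Every 3D library lay above every 2D library, between 269 and 354 against 46.8 and 49.3 summed CPM. The iHLO and iHEA libraries overlapped. In bulk RNA, fewer cells that express a gene and less RNA per cell cannot be told apart.

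Different genes carried these counts in each setting. In 2D-iHs, *Cyp2s1* held 64.1% and *Cyp2j6* 27.3% of the CYP2 counts, and in 2D-iHEs 63.4% and 28.8%. In iHLOs, *Cyp2f2* held 38.2%, *Cyp2s1* 24.02%, *Cyp2d34* 14.8% and *Cyp2d12* 8.14%, together 85.1%, and in iHEAs these 4 genes held 84.9%. The same 4 genes held 2.95% in adult liver, where *Cyp2e1* (20.4%), *Cyp2a4* (19.4%) and *Cyp2a5* (12.1%) led, and 2.64% in fetal liver, where *Cyp2c68* held 40.1%. The CYP2A subfamily held 36.6% of the CYP2 counts of adult liver and 1.76% of those of iHLOs, and CYP2D 9.54% and 28.1%.

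**Figure D3:**
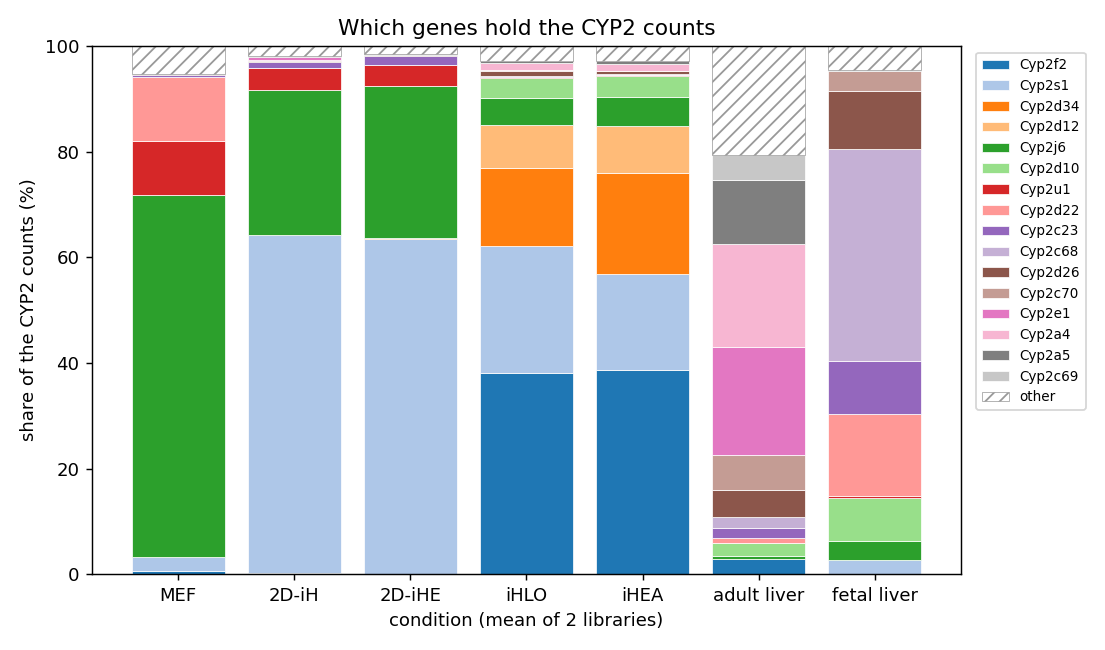
Each bar splits the CYP2 counts of a condition (mean CPM of 2 libraries, scaled to 100%) by gene, with all genes not listed under other. *Cyp2s1* and *Cyp2j6* fill most of the 2D bars, *Cyp2f2*, *Cyp2s1*, *Cyp2d34* and *Cyp2d12* make up 85.1% of the iHLO bar, and no gene exceeds 20.4% in adult liver.

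Per kilobase of exon, the order of levels in iHLOs was *Cyp2f2* (57.4 CPM per kb), *Cyp2d34* (16.2), *Cyp2s1* (14.8), *Cyp2d10* (6.91) and *Cyp2d12* (6.40), and iHEAs had the same 5 genes in the same order. In iHLOs, *Cyp2d34* and *Cyp2s1*, and *Cyp2d10* and *Cyp2d12*, had close levels. In iHEAs these pairs had 21.5 and 11.5, and 7.54 and 7.19 CPM per kb. In adult liver the order was *Cyp2a4* (1932 CPM per kb), *Cyp2e1* (1636), *Cyp2a5* (1009), *Cyp2c70* (581) and *Cyp2d26* (489), and in fetal liver *Cyp2c68* (36.5), *Cyp2d26* (9.68), *Cyp2d10* (7.82), *Cyp2c23* (7.31) and *Cyp2d22* (6.22).

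The main comparison asked which CYP2 genes differ between 3D and 2D culture, with 4 libraries on each side and the quasi-likelihood test of edgeR. Of the 48 genes, 12 passed the filter on low counts and 36 did not. Of the 12, 10 were called higher and 2 lower in 3D, where 75.9% of all 13409 tested genes were called, 38.7% higher and 37.2% lower. Only 5 of the 12 would have passed on their 2D counts, 3 of them called higher and 2 lower, and the other 7 (*Cyp2a4*, *Cyp2c65*, *Cyp2d10*, *Cyp2d12*, *Cyp2d26*, *Cyp2d34* and *Cyp2f2*) passed only through their 3D counts. These 7 had to differ, so the count of 10 is no support and their folds and p-values are given as a description.

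*Cyp2f2*, an enzyme that is abundant in mouse airway club cells and liver and activates naphthalene, showed the highest level of the family in 3D. It had 3576 and 3042 counts in iHLOs, with 3029 and 3189 in iHEAs, but 2 and 3 in 2D-iHs, 2 and 1 for 2D-iHEs, 7 and 5 in MEFs, 17470 and 17762 in adult liver and 2 and 1 in fetal liver. All 4 organoid and assembloid libraries lay above all 2D, MEF and fetal liver libraries and below both adult liver libraries. In CPM, the 3D mean was 118 ± 13.4 (SD, n = 4) against 0.0671 ± 0.0244 in 2D, a ratio of 1762 with a 95% counting interval of 881 to 4022, and the log2 fold change was 10.7 ± 0.17 (SE, edgeR adjusted p = 3.84e-12). *Cyp2f2* shared no stretch of 150 transcript bases with another gene, but 140 of its exon bases overlap *Gm15883* on the opposite strand, and the handling of strand is not stated.

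Of the 8 CYP2D genes, the 4 that passed the filter did so through their 3D counts. *Cyp2d34* had 1355 and 1203 counts in iHLOs, with 1363 and 1701 in iHEAs, against 0 and 1 in the 2D-iHs and 0 and 2 in the 2D-iHEs. *Cyp2d12* had 706 and 704 counts in iHLOs, with 582 and 842 in iHEAs and 0 in all 4 2D libraries. *Cyp2d10* had 293 and 353 in iHLOs, with 305 and 337 in iHEAs, against 0 to 1 in 2D. No 2D library overlapped a 3D library for these 3 genes. Their levels in 3D were 52.3 ± 13.1, 26.4 ± 6.43 and 11.9 ± 1.86 CPM (SD, n = 4). *Cyp2d12* was at least 249.2-fold higher in 3D, set against the limit of 3 counts per library. The ratio of mean CPM was 1607 for *Cyp2d34* (counting interval 694 to 9836) and 759 for *Cyp2d10* (193 to 5760), which rest on 3 and 2 counts over the 4 2D libraries. The adjusted p-values of edgeR were 5.53e-08 for *Cyp2d12*, 3.67e-10 for *Cyp2d34* and 3.01e-10 for *Cyp2d10*.

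*Cyp2d26*, which the study names with *Cyp2b10* and *Cyp2w1*, had 90 and 79 counts in iHLOs, with 65 and 30 in iHEAs, against 4 and 3 in the 2D-iHs and 2 and 1 in the 2D-iHEs, with a log2 fold change of 4.73 ± 0.41 for 3D against 2D (edgeR adjusted p = 7.69e-07). *Cyp2d9*, a male-predominant testosterone hydroxylase of mouse liver, had 50 and 32 counts in iHLOs, with 25 and 21 in iHEAs and at most 1 in a 2D library, but was under the filter. *Cyp2d22* had 0 counts in all 4 2D libraries and at most 2 in a 3D library, while MEFs had 110 and 102, adult liver 5712 and 6108 and fetal liver 686 and 627. *Cyp2d11* had at most 1 count and *Cyp2d40* at most 1 count in a culture library.

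The CYP2D genes are closely related copies, and how reads that fit several genes were counted is not stated. Coding identity was 92.1% between *Cyp2d12* and its closest member *Cyp2d9*, 91.5% between *Cyp2d34* and *Cyp2d11* and 94.7% between *Cyp2d10* and *Cyp2d11*. Of the 150-base stretches of their transcripts, 0.598% of *Cyp2d12*, 0% of *Cyp2d34* and 6.4% of *Cyp2d10* also occurred in another gene, so most stretches of that length were their own. *Cyp2d10* and *Cyp2d12* also overlap another gene on the same strand by 60 exon bases each. The likeness is seen in the coding bases of the loop that holds the heme iron, which are shown for the 5 CYP2D genes detected in both 3D conditions and neither 2D condition and for *Cyp2f2*, with the codon of the heme-binding cysteine in capitals (coding sequence of GENCODE M21 on GRCm38, 5′ to 3′). The genomic span from the first to the last base, intron included, was chr15:82616193-82616322 on the minus strand for *Cyp2d34*, chr15:82559053-82559182 on the plus strand for *Cyp2d12*, chr15:82403077-82403206 on the minus strand for *Cyp2d10*, chr15:82790336-82790465 on the minus strand for *Cyp2d26*, chr15:82456466-82456595 on the plus strand for *Cyp2d9* and chr7:27132606-27133235 on the plus strand for *Cyp2f2*.
Cyp2d34: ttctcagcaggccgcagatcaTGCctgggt
Cyp2d12: ttttcagcaggccgcagatcaTGCctgggg
Cyp2d10: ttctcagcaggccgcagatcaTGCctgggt
Cyp2d26: ttctcagcaggccgcagatcaTGCctgggg
Cyp2d9: ttctcagcaggccgcagatcaTGCctgggg
Cyp2f2: ttttcggctggacgtcgactgTGTctggga

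**Figure D4:**
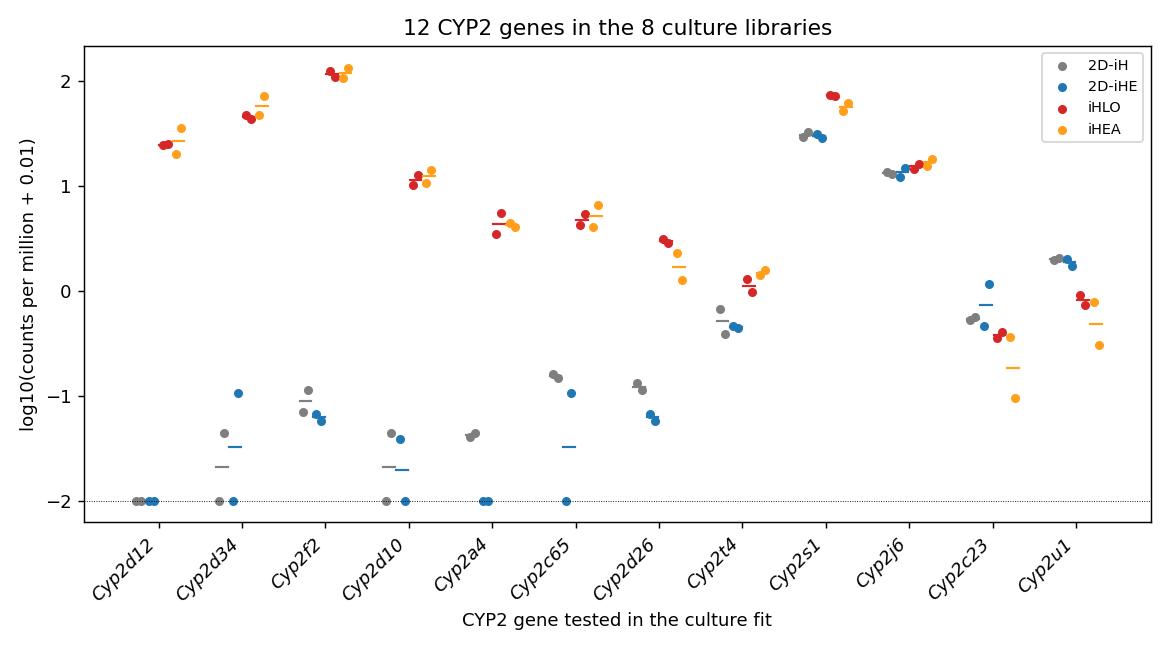
Points are the 8 culture libraries for the 12 CYP2 genes tested in the culture fit, on log10(CPM + 0.01), where the dotted line is a count of 0; short lines are means of the 2 plotted values. Genes run from the highest to the lowest fold change of 3D against 2D. From *Cyp2d12* to *Cyp2s1* no 2D point reaches a 3D point, whereas the points of *Cyp2j6* lie close together and those of *Cyp2u1* are lower in 3D.

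In CYP2A, *Cyp2a4*, a steroid hydroxylase, had 99 and 154 counts in iHLOs, with 126 and 97 in iHEAs, against 1 and 1 in 2D-iHs and 0 in 2D-iHEs. The 3D libraries did not overlap the 2D libraries, with 4.35 ± 0.864 against 0.0161 ± 0.0187 CPM (SD, n = 4) and a log2 fold change of 7.66 ± 0.39 (edgeR adjusted p = 9.34e-09). *Cyp2a5*, the coumarin hydroxylase, had 37, 14, 58 and 33 counts in the 4 3D libraries and at most 2 in a 2D library. *Cyp2a4* and *Cyp2a5* are 98.5% identical in coding sequence, and 4.22% and 5.79% of their 150-base stretches occur in another gene, so a part of their reads could be placed on either. *Cyp2a4* also overlaps *Gm42375* on the opposite strand by 61 exon bases. *Cyp2a12* and *Cyp2a22* had no count in the 4 3D libraries.

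In CYP2C, *Cyp2c65*, known from the gastrointestinal tract, had 121 and 150 counts in iHLOs, with 117 and 156 in iHEAs, against 5 and 4 in 2D-iHs, 0 and 2 for 2D-iHEs, 1 and 0 in adult liver and 2 and 1 in fetal liver. Each of the 4 3D libraries lay above every other library. The mean was 5.05 ± 1.16 CPM in 3D and 0.0961 ± 0.0683 in 2D, 52.6-fold with a counting interval of 29.7 to 108, and the log2 fold change was 5.67 ± 0.39 (edgeR adjusted p = 1.08e-07). Its neighbour *Cyp2c66*, with 96.3% coding identity, had 1 count in a single iHLO library and 0 elsewhere.

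The upstream windows of this pair are shown because the genes are near-copies of which 1 was gained in 3D. They are the 250 bases before the RefSeq start (GRCm38.p6, plus strand), chr19:39060756-39061005 for *Cyp2c65* and chr19:39113648-39113897 for *Cyp2c66*, with matches to CAAAGTCCA (a HNF4-type motif) and TATAAA in capitals, which do not overlap each other there. These motifs were searched on both strands of the 42 windows that RefSeq gave for 40 of the 48 genes.
Cyp2c65: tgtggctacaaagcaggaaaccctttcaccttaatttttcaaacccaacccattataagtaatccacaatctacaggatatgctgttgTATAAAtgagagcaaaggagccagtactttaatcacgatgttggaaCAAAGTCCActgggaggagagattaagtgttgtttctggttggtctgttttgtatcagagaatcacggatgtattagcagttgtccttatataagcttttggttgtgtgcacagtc
Cyp2c66: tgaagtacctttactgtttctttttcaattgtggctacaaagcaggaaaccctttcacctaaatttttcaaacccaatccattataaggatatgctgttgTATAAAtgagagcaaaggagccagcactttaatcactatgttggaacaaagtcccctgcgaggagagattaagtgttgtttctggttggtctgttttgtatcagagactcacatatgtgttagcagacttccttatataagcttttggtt

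CAAAGTCCA was found in 6 of the 42 CYP2 windows, all of them of CYP2C genes (*Cyp2c40*, *Cyp2c65*, *Cyp2c67*, *Cyp2c68*, *Cyp2c69* and *Cyp2c70*), and in 0.384% of all 32851 windows of the same length. TATAAA was found in 18 of the 42 and in 12.4% of all. Of the 6 genes with CAAAGTCCA, *Cyp2c65* was gained in 3D, and the other 5 were detected in adult liver with at most 9 counts in any culture library. These matches describe the letters of the windows only.

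The other CYP2C genes stayed low in 3D. *Cyp2c55*, known from the colon, had 21 and 10 counts in iHLOs, with 12 and 18 in iHEAs, at most 1 in a 2D library and 36 and 52 in adult liver. *Cyp2c70*, the muricholic acid-forming enzyme of mouse bile acid synthesis, had 7 and 9 counts in iHLOs, with 5 and 2 in iHEAs, but 5 and 0 in 2D-iHs, 2 and 1 for 2D-iHEs, and 39352 and 40411 in adult liver. *Cyp2c23*, an arachidonic acid epoxygenase, was called lower in 3D, at 10 and 11 counts in iHLOs plus 10 and 2 in iHEAs against 17 and 16 in the 2D-iHs and 16 and 24 in the 2D-iHEs (log2 fold change -1.10 ± 0.42, edgeR adjusted p = 0.0326). That call was lost without the iHEA library without a number (-0.81, adjusted p = 0.0679) and without 2D-iHE library 2 (-0.78, adjusted p = 0.0883).

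The 5 members that passed the filter on their 2D counts alone were *Cyp2s1*, *Cyp2t4*, *Cyp2j6*, *Cyp2c23* and *Cyp2u1*. *Cyp2s1*, a P450 of surface epithelia that responds to the aryl hydrocarbon receptor *Ahr*, had 956 and 959 counts in 2D-iHs, 1092 and 596 for 2D-iHEs, 2125 and 2037 in iHLOs and 1467 and 1476 in iHEAs. It was 2.14-fold higher in 3D (64.9 ± 10.5 against 30.4 ± 1.99 CPM, SD, n = 4), without overlap, with a log2 fold change of 1.08 ± 0.11 (edgeR adjusted p = 3.29e-06). *Cyp2t4* rose from between 9 and 22 counts per 2D library to between 27 and 40 per 3D library (log2 fold change 1.38 ± 0.24, edgeR adjusted p = 0.000287). *Cyp2j6* overlapped between 2D and 3D in CPM, with a log2 fold change of 0.25 ± 0.08 (edgeR adjusted p = 0.0141), and lost its call without 2D-iHE library 1 (0.20, adjusted p = 0.0531).

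*Cyp2u1*, a fatty acid hydroxylase, fell in 3D, at 26 and 20 counts in iHLOs plus 22 and 7 in iHEAs against 64 and 60 in the 2D-iHs and 71 and 36 in the 2D-iHEs. In CPM the 3D and 2D libraries did not overlap, with 0.670 ± 0.262 against 1.94 ± 0.148 (SD, n = 4) and a log2 fold change of -1.53 ± 0.26 (edgeR adjusted p = 0.00021). Exon bases of *Cyp2s1* (260) and *Cyp2u1* (548) overlap a gene on the opposite strand. *Cyp2r1* had 0 counts in all 8 culture libraries, which allows up to 0.144 CPM, against 5 and 10 in MEFs, 516 and 463 in adult liver and 24 and 29 in fetal liver.

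Of the 36 genes under the filter, 28 had a count in a culture library and 8 had none. When these 28 were added to the test, 6 were called higher in 3D and 0 lower, where 75.8% of the 13437 tested genes were called, 38.7% higher and 37.1% lower. Apart from *Cyp2e1*, with 19 counts in 1 library, they had at most 5 counts in any 2D library and little room to be lower in 3D, so these counts are a description. The 6 were *Cyp2a5*, *Cyp2b10*, *Cyp2c55*, *Cyp2c70*, *Cyp2d9* and *Cyp2w1*. *Cyp2b10*, the classical target of phenobarbital and the receptor CAR, had 16 and 8 counts in iHLOs, with 9 and 6 in iHEAs, 0 to 1 in 2D and 874 and 967 in adult liver. *Cyp2w1*, an oncofetal P450, had 7 and 5 counts in iHLOs, with 3 and 4 in iHEAs, 1 in a single 2D library, 0 in adult liver and 16 and 6 in fetal liver. Both had log2 fold changes of about 4 between 3D and 2D, 4.05 ± 0.66 for *Cyp2b10* (edgeR adjusted p = 0.000165) and 3.78 ± 0.76 for *Cyp2w1* (edgeR adjusted p = 0.000754), at levels of 0.352 and 0.174 CPM in 3D.

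The comparisons within each pair of cultures gave 9 CYP2 genes higher and 1 lower of 12 tested for iHLOs against 2D-iHs, where 72.3% of all tested genes were called, 36.9% higher and 35.3% lower. For iHEAs against 2D-iHEs, 10 were higher and 2 lower, where 70.9% were called, 36% higher and 34.9% lower. The 7 genes that passed the filter only through their 3D counts made up 7 of the 9 and 7 of the 10 higher calls, so these counts are no support either. Of the 5 that passed on their 2D counts, the iHLO comparison called 2 higher and 1 lower, and the iHEA comparison 3 higher and 2 lower. *Cyp2u1* was lower in both, by 1.32 ± 0.32 and 1.80 ± 0.35 on the log2 scale (edgeR adjusted p = 0.00239 and 0.000523). *Cyp2c23* and *Cyp2j6* were called only for iHEAs against 2D-iHEs, and the difference between the pairs did not pass the test for either (edgeR adjusted p = 0.555 and 0.83). Both calls were lost without the iHEA library without a number, and without 2D-iHE library 2 for *Cyp2c23* and library 1 for *Cyp2j6* (adjusted p of 0.0912 to 0.313). *Cyp2t4*, called higher for iHLOs against 2D-iHs, lost its call without 2D-iH library 2 (adjusted p = 0.124) and without iHLO library 1 (0.0933). With all libraries, the Wald test of DESeq2 did not call this result (adjusted p = 0.0727) or that of *Cyp2j6* for iHEAs against 2D-iHEs (0.07004).

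The marker lists of other cell types, and the single genes within them, were read beside these genes. The summed level of 6 cholangiocyte markers, all detected in all 4 cultures, was 1390 to 1496 CPM in 2D-iHs and 1415 to 1490 in iHLOs, and 1263 to 1371 in 2D-iHEs and 1767 to 1817 in iHEAs. Within that list *Krt19* had 16159 to 31981 counts per 2D library and 19412 to 24570 per 3D library. *Epcam* had 271 to 491 counts in 2D and 6900 to 9732 in 3D, whereas *Sox9* had 136 to 279 and 31 to 163. Of 9 gastric and intestinal mucosa markers, 7 were detected in both 3D conditions and 6 in both 2D conditions. The summed level of the 9 was 964 to 1084 CPM in the 3D libraries and 50.2 to 84.7 CPM in the 2D libraries. *Gkn2* had 61 to 213 counts in 2D and 5095 to 10064 in 3D, but *Cdx2* 472 to 1094 and 974 to 1154. *Lgr5* had 1 to 2 counts in 2D and 0 or 1 in 3D, apart from 275 in iHEA library 1. *Tff1* and *Tff2* were at 0 in 2D, with 2 to 14 counts in 3D. Of 4 airway club cell and surfactant markers, 2 were detected in 3D and 0 in 2D, with summed levels of 27.5 to 49.7 and 0.142 to 0.288 CPM, *Scgb3a2* was at 0 in iHEAs and in all 2D libraries, and *Sftpd* was at 0 in 2D and at 558 to 1026 counts in 3D. The summed level of 5 endothelial markers was 472 to 526 CPM in 2D and 942 to 1429 CPM in 3D, with the higher values in the iHLOs, which hold no iECs, and *Kdr* at 0 in iHEAs. Its genes differed in this, as *Cdh5* had 9451 to 16261 counts in 2D and 10322 to 14321 in 3D, and *Vwf* 363 to 1010 and 11946 to 25206. The summed level of 8 hepatocyte markers was 338 to 457 CPM in 3D and 328 to 355 CPM in 2D. Its genes differed, as *Apoa1* had 6803 to 12149 counts in 2D and 5697 to 10188 in 3D. *Ttr* had 31 to 89 counts in 2D and 2252 to 2924 in 3D, and *Tat* 1 to 11 and 43 to 538. *Cps1* had 1 to 17 counts in 2D and 2 to 4 in 3D. *Serpina1a* was at 0 in 3D and in 2D-iHEs, *Apoa2* at 0 in 2D-iHEs, and *G6pc* at 0 in 2D. The 3 fetal hepatic markers summed to 28.1 to 37.9 CPM in 2D and 19.35 to 21.6 CPM in 3D, with *Dlk1* at 0 in 2D. The 5 fibroblast markers summed to 3.39 to 3.803 CPM in 2D-iHs and 4.04 to 9.47 in iHLOs. They summed to 11.6 to 13.1 CPM in 2D-iHEs and 3.28 to 3.91 in iHEAs. *Col1a1* had 93 to 441 counts in 2D and 9 to 59 in 3D, but *Pdgfra* 5 to 18 and 57 to 209. *Col1a2* and *Thy1* were at 0 in 3D, with at most 3 and 1 counts in a 2D library, and *Thy1* was also at 0 in 2D-iHEs. The 5 erythroid markers summed to 0.171 to 0.667 CPM in 2D and 0.214 to 0.547 CPM in 3D. The part of these cell types in the CYP2 counts was not tested.

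The effect of adding iECs was tested in 3D and in 2D. Between iHEAs and iHLOs, 1 of the 12 tested genes was called, where 2.26% of all tested genes were, 1.19% higher and 1.07% lower in iHEAs. *Cyp2s1* was lower in iHEAs, with 1467 and 1476 counts against 2125 and 2037 in iHLOs (51.2 and 62.1 against 73.7 and 72.8 CPM), a log2 fold change of -0.39 ± 0.09 (edgeR adjusted p = 0.0341). That call was lost in the fit of all 14 libraries (adjusted p = 0.0529) and without either iHLO library (adjusted p = 0.24 and 0.179). *Cyp2d26* had lower CPM in both iHEA libraries than in both iHLO libraries but did not pass the test (log2 fold change -0.75 ± 0.27, edgeR adjusted p = 0.227), and *Cyp2d34* likewise had a log2 fold change of 0.38 ± 0.14 (edgeR adjusted p = 0.264). Without iHEA library 1, both passed (*Cyp2d26* -1.26, adjusted p = 0.016, and *Cyp2d34* 0.65, adjusted p = 2.62e-05), and 4 members were called. That fit has 1 iHEA library, assumed to vary like the other conditions, and it is the library whose *Cyp2d34* level of 71.6 CPM stood apart from the other 3D libraries. *Cyp2f2* had 116 ± 10.9 CPM in iHLOs and 120 ± 20.2 in iHEAs (SD, n = 2).

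In 2D, 0 of the 12 genes were called between 2D-iHEs and 2D-iHs by edgeR, where 8.17% of all tested genes were (4.26% higher, 3.92% lower), and 0 had an unadjusted p under 0.05; DESeq2 called 0 as well. *Cyp2s1* differed by -0.07 ± 0.09 and *Cyp2j6* by 0.00 ± 0.11 on the log2 scale. For the effect of iECs in 3D minus that in 2D, edgeR called 0 of the 12 genes, where 3.14% of all were (1.52% higher, 1.62% lower), 1 had an unadjusted p under 0.05 and DESeq2 called 0. That gene was *Cyp2s1*, with -0.32 ± 0.13 (edgeR adjusted p = 0.239).

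Set against adult liver, most CYP2 genes were lower in the organoids, and 5 were higher. In the fit of all 14 libraries, 40 of the 48 genes were tested and 8 were not. Between iHLOs and adult liver, 34 were called lower in iHLOs and 5 higher, where 79.8% of all 17080 tested genes were called, 38.2% lower and 41.6% higher. Of the 40, 17 passed the filter only through the adult liver libraries and 2, *Cyp2d34* and *Cyp2c65*, only through the 3D libraries, so these had to differ and the counts of calls are no support. Of the 23 that did not need the adult liver libraries, 17 were lower and 5 higher, and of the 38 that did not need the 3D libraries, 34 were lower and 3 higher. Of the 36 genes detected in adult liver, 21 had at most 3 counts in each of the 4 3D libraries and 14 had 0 counts in all 4. Of the 13 CYP2C genes detected in adult liver, 10 had at most 3 counts in each 3D library.

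*Cyp2e1*, the ethanol-oxidizing P450 of pericentral hepatocytes, had 120045 and 124762 counts in adult liver and 0 in all 4 3D libraries, at least 33431-fold lower in iHLOs. *Cyp2a4* was 752-fold lower in iHLOs than in adult liver (counting interval 667 to 857), where it had 113120 and 119732 counts, and *Cyp2d26* 295-fold (253 to 345). *Cyp2c69*, *Cyp2a12* and *Cyp2j5*, an arachidonic acid epoxygenase of liver and kidney, had 0 counts in both iHLO libraries and were at least 7684-, 7603- and 4828-fold lower. The members closest to adult liver among those called lower were *Cyp2f2*, 4.37-fold lower in CPM (4.25 to 4.48), *Cyp2j6*, 4.68-fold (4.36 to 5.04), *Cyp2u1*, 5.75-fold (4.20 to 7.995), and *Cyp2c55*, 2.33-fold (1.53 to 3.63). On the TMM scale of the fit these were log2 fold changes of -3.52, -3.62, -3.91 and -2.60, and that scale shifted every gene of this comparison by -1.40 from the CPM scale.

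**Figure D5:**
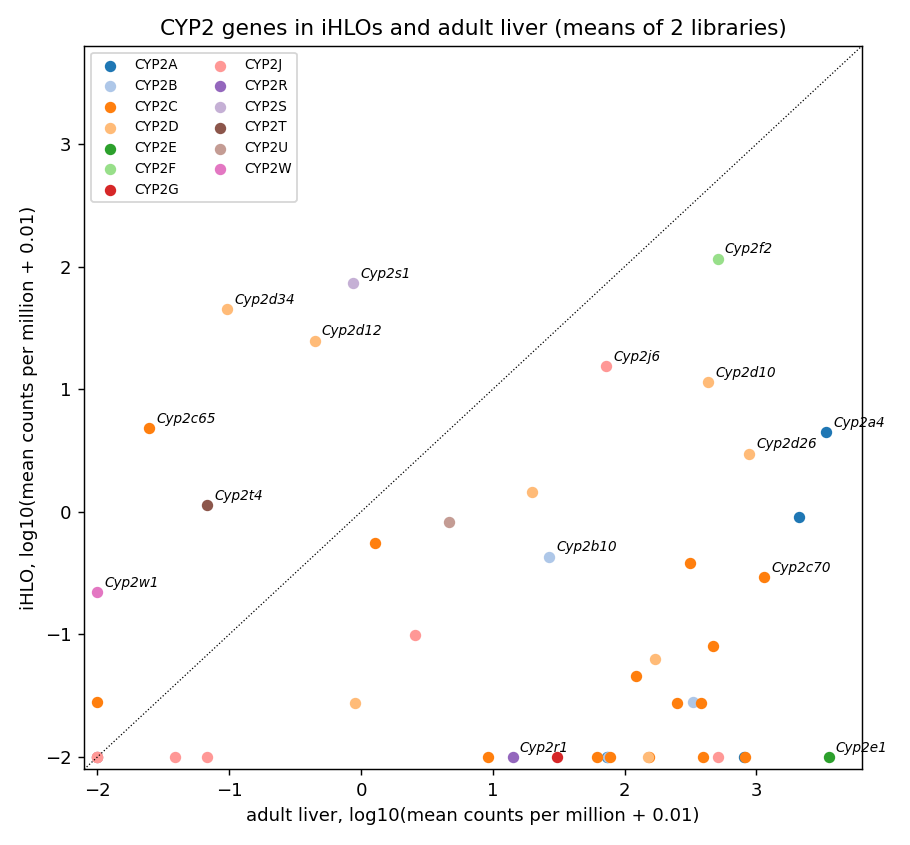
Each point is a CYP2 gene, with its mean log10(CPM + 0.01) in adult liver on the horizontal and in iHLOs on the vertical axis, coloured by subfamily; the dotted line marks equal CPM. The 5 genes called higher in iHLOs, *Cyp2s1*, *Cyp2d34*, *Cyp2d12*, *Cyp2c65* and *Cyp2t4*, lie above the line, and many CYP2C genes lie on the floor of the plot at a count of 0 in iHLOs.

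The 5 genes called higher in iHLOs than in adult liver were *Cyp2d34*, *Cyp2c65*, *Cyp2s1*, *Cyp2d12* and *Cyp2t4*. *Cyp2d34* had 1 and 5 counts in adult liver and was 523-fold higher in iHLOs (counting interval 239 to 1419), and as it passed the filter only through 3D this is a description. *Cyp2s1* had 30 and 30 counts in adult liver and was 84.6-fold higher (65.6 to 111), with 5.00 ± 0.17 (edgeR adjusted p = 7.49e-15). *Cyp2d12* had 20 and 10 counts in adult liver and was 57.2-fold higher (40.0 to 85.3). *Cyp2c65* had 1 count over both adult liver libraries and was 328-fold higher with an interval of 58.9 to 13107, likewise a description, and *Cyp2t4* had 3 and 1 counts and was 19.4-fold higher (7.26 to 73.8). Across the 40 genes detected in either, the levels in iHLOs and adult liver had a Spearman's rho of -0.22, as a description over genes that share both libraries and are not independent.

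The same iHLO libraries against fetal liver gave 13 CYP2 genes higher and 15 lower of 40 tested, where 83.5% of all genes were called, 38.8% higher and 44.7% lower, and 12 were not called. Without *Cyp2d34* and *Cyp2c65*, which passed the filter only through 3D, 11 of 38 were higher. Another 17 passed it only through adult liver. Some of these, such as *Cyp2c38* and *Cyp2g1*, had 0 counts in iHLOs and fetal liver and could not be called. In a fit of iHLOs and fetal liver alone, 22 members were tested, with 10 called higher and 9 lower. That fit called 6289 of 15786 genes higher and 7106 lower. Higher in iHLOs were *Cyp2f2* (2131-fold, counting interval 717 to 10173), *Cyp2d34* (2282-fold, 436 to 96098), *Cyp2d12* (at least 223-fold), *Cyp2c65* (87.5-fold, 29.1 to 419) and *Cyp2a4* (51.2-fold, 20.4 to 149). *Cyp2c29* was among the 13 with 3 and 1 counts against 0 and 0. This is at the limit of 3 counts per library, so no fold is given, and *Cyp2c29* was not called with a replicate block. Its call was lost without iHLO library 1 or either fetal liver library (adjusted p of 0.0876 to 0.163), and that of *Cyp2d9* (higher) without iHLO library 1 (0.376) or fetal liver library 1 (0.3). With all their libraries, *Cyp2d9* was also not called with the size factors or the Wald test of DESeq2 (adjusted p = 0.0762 and 0.0759), in a fit of these conditions alone (0.124) or with a mean filter in them (0.0504), and *Cyp2a22* was not called by the Wald test (0.443). *Cyp2a22*, *Cyp2c37*, *Cyp2d11* and *Cyp2j9* (lower) each lost their call without 1 library (adjusted p of 0.0569 to 0.151). Lower in iHLOs were *Cyp2c68*, with 1 and 0 counts against 1863 and 1545, *Cyp2d22* (463-fold, 157 to 2235) and *Cyp2c23* (42.6-fold, 27.9 to 69.8). *Cyp2a12* (at least 13.5-fold), *Cyp2c67* (at least 11.96-fold) and *Cyp2r1* (at least 9.38-fold) were at 0 in iHLOs. *Cyp2d10* was not called, with 11.4 ± 1.73 CPM in iHLOs and 12.9 ± 1.27 in fetal liver (SD, n = 2, edgeR adjusted p = 0.348).

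Between the reference livers, 35 of 40 tested CYP2 genes were called higher in adult liver and 1 lower, where 80.3% of all genes were called, 37.2% higher and 43.1% lower. Of the 40, 17 passed the filter only through the adult liver libraries and had to be higher there, and of the other 23, 18 were called higher and 1 lower. With 1 adult liver library left out, 20 of 25 were called. *Cyp2a22* was not called by the Wald test of DESeq2 (adjusted p = 0.0711). *Cyp2e1* rose from 4 and 1 counts in fetal liver to 120045 and 124762, 39456-fold in CPM (16349 to 117506). *Cyp2c29* and *Cyp2c50* had 0 counts in fetal liver and were at least 4229- and 2226-fold higher. *Cyp2c68* differed least among the CYP2C genes that exceeded 1 CPM in both, at 6.06-fold (5.83 to 6.27), and *Cyp2d22* was 7.01-fold higher (6.63 to 7.43). *Cyp2s1* was the gene called lower in adult liver, with 30 and 30 counts against 94 and 123. In CPM it was 4.70-fold lower (counting interval 3.47 to 6.29), and on the TMM scale, which shifted every gene of this comparison by 1.45 on the log2 scale, its log2 fold change was -0.77 ± 0.25 (edgeR adjusted p = 0.00973). That call was lost without either adult liver library (adjusted p = 0.0809 and 0.106) and without fetal liver library 2 (adjusted p = 0.076). With the members under the filter added to the test, 2 were called lower, the other being *Cyp2w1*, with 16 and 6 counts in fetal liver and 0 in adult liver. The summed level of 5 erythroid markers was 33467 to 33938 CPM in fetal liver and 239 to 256 CPM in adult liver, with none at 0, and its part in these differences was not tested.

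Members that differ between the sexes in mouse liver were read in the adult liver libraries. The female-predominant *Cyp2b9*, *Cyp2b13*, *Cyp2c40*, *Cyp2c69* and *Cyp2a4* had 330 ± 4.14, 74.7 ± 0.24, 395 ± 9.89, 811 ± 10.4 and 3357 ± 87 CPM (SD, n = 2), and the male-predominant *Cyp2d9* had 19.8 ± 0.921. *Xist* had 14646 and 16368 counts and *Ddx3y*, *Eif2s3y*, *Kdm5d* and *Uty* had 0 in both libraries. The methods describe male mice for adult liver tissue under qRT-PCR and give no sex under RNA-seq. The levels of these 6 members are therefore given without a sex. The cultures had at most 3 counts of *Cyp2b9*, *Cyp2b13*, *Cyp2c40* and *Cyp2c69* in any library.

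The conversion from MEFs to 2D-iHs gave 5 CYP2 genes higher and 5 lower of 40 tested. Over all genes, 76.8% were called, 41.2% higher and 35.6% lower. Many of the 40 had few or no counts in both conditions and little room to be called. In a fit of these conditions alone, 7 members were tested, with 2 called higher and 4 lower. That fit called 6391 of 14675 genes higher and 6605 lower. *Cyp2s1* showed the clearest increase, from 21 and 25 counts in MEFs to 956 and 959, 40.1-fold (counting interval 30.3 to 55.7), with a log2 fold change of 5.38 ± 0.18 (edgeR adjusted p = 9.85e-15). *Cyp2c23* rose from 3 and 3 to 17 and 16 counts and *Cyp2c65* from 0 to 5 and 4. *Cyp2e1*, with 19 and 0 counts, and *Cyp2c70*, with 5 and 0, had their counts in 2D-iH library 1, which also had 210 counts of *Alb* against 9 in library 2. Without that library both log2 fold changes were 0, and both calls were also lost without either MEF library. With all libraries, the Wald test of DESeq2 did not call *Cyp2e1* (adjusted p = 0.384). *Cyp2c70* was not called with a replicate block. *Cyp2d22* fell from 110 and 102 counts to 0, at least 36.2-fold, *Cyp2j13*, which passed the filter only through MEFs, from 13 and 11 to 0, at least 4.09-fold, and *Cyp2r1* from 5 and 10 to 0, at least 2.65-fold. *Cyp2j6* fell 1.51-fold (1.38 to 1.65), and *Cyp2j9* had 10 and 2 counts in MEFs and 1 and 0 in 2D-iHs. The call of *Cyp2j9* was lost without MEF library 1 (adjusted p = 0.308) or 2D-iH library 2 (0.102), and that of *Cyp2c65* without MEF library 1 (0.0509).

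The partners of the P450 enzymes were read as lists. Of 6 electron donors and partners, 2 were called higher and 3 lower in 3D against 2D, where 75.9% of all tested genes were called, and *Por*, the P450 reductase, fell from 7935 to 13779 counts in 2D to 3784 to 4884 in 3D (log2 fold change -1.13 ± 0.06, edgeR adjusted p = 2.40e-08). Of 8 heme synthesis genes, 4 were higher and 4 lower, with *Alas1*, the rate-limiting enzyme, higher by 1.00 ± 0.06 (edgeR adjusted p = 1.85e-08). Both epoxide hydrolases, *Ephx1* and *Ephx2*, fell, by 0.89 ± 0.06 and 1.15 ± 0.06 on the log2 scale (edgeR adjusted p = 7.85e-08 and 6.38e-09). The median log2 fold changes of these 3 lists were -0.27, -0.07 and -1.02, beside 0.01 over all genes.

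Of 13 regulators of P450 genes, 10 were tested in the cultures, 6 were called higher in 3D and 2 lower, beside 38.7% and 37.2% of all tested genes. *Nr1i2*, the xenobiotic receptor PXR, had 4 to 6 counts per 2D library and 104 to 133 per 3D library. It passed the filter only through 3D and is given as a description, and of the other 9 tested regulators, 5 were called higher and 2 lower. *Nr1i3*, the receptor CAR, had at most 2 counts in any culture library. *Cebpa* and *Ahr* rose by 2.08 ± 0.18 and 1.29 ± 0.12 (edgeR adjusted p = 7.83e-07 and 1.10e-06). *Hnf4a*, which was also delivered as a conversion factor whose reads cannot be told apart here, had 4117 to 7670 counts in 2D and 5137 to 5886 in 3D (log2 fold change -0.11 ± 0.08, edgeR adjusted p = 0.217). Between iHLOs and adult liver, all 6 electron donors and partners, 8 heme synthesis genes, 13 regulators and 2 epoxide hydrolases were called lower in iHLOs on the TMM scale, beside 38.2% of all genes. In CPM the direction was the opposite for genes of all 4 lists, among them *Cyb5b*, *Pgrmc2*, *Cpox*, *Ppox*, *Uros*, *Ahr*, *Cebpb*, *Foxa2* and *Ephx1*, with 76.3 CPM of *Pgrmc2* in iHLOs and 35.4 in adult liver. Between adult and fetal liver, 6 of 6 electron donors and partners, 13 of 13 regulators and 2 of 2 epoxide hydrolases were called higher in adult liver on the TMM scale, whereas 6 of 8 heme synthesis genes were lower and 1 higher, beside 37.2% of all genes higher and 43.1% lower. *Pgrmc2* was lower in adult than in fetal liver in CPM (35.4 against 67.2), and *Nr1i3* passed the filter of both comparisons only through adult liver.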

How the data were processed

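RNA-seq counts per gene were analyzed for 14 libraries in 7 conditions. Per the paper's methods and the submitters' processing notes, the authors trimmed 150 bp paired-end reads with Trimmomatic 0.36, aligned them with HISAT2 to mm10 and counted them with HTSeq, and Cufflinks is also listed; which annotation release was used, and how multi-mapped reads and strand were handled, is not given in the sources used here. The deposited values are unnormalized whole counts, and library totals ran from 20851489 to 35143325. Conditions came from the labels. Replicate numbers came from the titles, except for 1 iHEA column whose name fits its condition but not 1 sample.

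Members followed the symbol rule. The members and gene lists were chosen with earlier results of these data known. Annotation, exon lengths and coding sequences came from GENCODE M21, and upstream windows from RefSeq (GRCm38.p6), where another motif that was searched is not reported here; pairwise coding identity used Biopython 1.88.

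Cultures were tested with edgeR 4.0.16 in R 4.3.3 (TMM, quasi-likelihood test, Benjamini-Hochberg adjustment over all tested genes, adjusted p under 0.05) after keeping genes whose log2(count + 1) averaged 3 or more across the 8 libraries. Comparisons with MEFs or liver used 1 fit of all 14 libraries and genes with at least 10 counts in at least 2 libraries. The 10 comparisons share libraries where they share a condition. Standard errors are the log2 fold change divided by the square root of F. Folds of CPM carry exact 95% counting intervals, or are bounds against 3 counts per library where a group was at 0. The scripts were tested on simulated data.

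Named genes were the 5 highest members of each condition, up to 5 called members in each direction per comparison whose groups did not overlap, members the study names, and members with known roles or sex differences; *Cyp2a22*, *Cyp2c37* to *Cyp2c39*, *Cyp2c54*, *Cyp2c55*, *Cyp2c66*, *Cyp2d11*, *Cyp2d40* and the undetected members were added, after their values were seen, to account for all 48. Alternatives were DESeq2 1.42.0 (size factors, Wald test), other filters, fewer or more libraries, a replicate block, and each library left out. The libraries of the block fit without the block were an alternative chosen after seeing the data.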

Additional observations from a re-analysis of the deposited data

Results flagged for a closer look

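Among 66 groups of 4 libraries (33 named genes in 2D and in 3D), 10 had a library far from the other 3 by Dixon's criterion. Chance flags about 1 in 20 groups of continuous values, a rate that cannot be set against these 10, since 7 of them are groups with counts in 1 library and 0 in the other 3, which always meet the criterion. *Cyp2d34* in the iHEA library without a number (71.6 CPM, 1701 counts) stood above the other 3D libraries, and *Cyp2c23* there (0.0842 CPM, 2 counts) below them. *Cyp2c23* in 2D-iHE library 2 (1.15 CPM, 24 counts) stood above the other 2D libraries. *Cyp2e1* (0.576 CPM, 19 counts) and *Cyp2a12* (0.152 CPM, 5 counts) had counts in 2D-iH library 1 and in no other 2D library. The other 5 rest on a single count in 1 library: *Cyp2c67* and *Cyp2w1* in 2D-iH library 1 (0.0303 CPM each), *Cyp2d9* in 2D-iH library 2 (0.0343 CPM), *Cyp2c68* in 2D-iHE library 1 (0.0284 CPM) and *Cyp2b9* in iHLO library 2 (0.0357 CPM).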

How the results depend on the processing

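Over 150 results for single genes, none of 1731 alternative values reversed direction. Of these values, 1679 kept their side of the threshold, 49 lost it and 3 gained it. The 49 fell on 18 gene results, and 35 of the 49 came from leaving out a library. Among these 35, culture fits without the iHEA library without a number appear more than once, with the same values. For the number of CYP2 genes called, a mean log2(count + 1) of at least 5 gave 5 for 3D against 2D, 4 for iHLOs against 2D-iHs and 5 for iHEAs against 2D-iHEs, with 5 members tested. No filter gave 17 for iHLOs against 2D-iHs, 2 for iHEAs against iHLOs, 1 for 2D-iHEs against 2D-iHs and 1 for the difference between the effects of iECs. For iHLOs against 2D-iHs, adding the members under the filter gave 16 and all 14 libraries gave 16, while all 14 gave 0 for iHEAs against iHLOs. For 2D-iHs against MEFs, only these conditions gave 6 of 7 tested and a mean filter in them 5 of 6. That filter gave 14 of 18 tested for iHLOs against fetal liver. Leaving out 1 library gave 0 to 4 for iHEAs against iHLOs, 0 to 1 for the difference between the effects of iECs, 20 to 36 for adult against fetal liver, 6 to 10 for 2D-iHs against MEFs and 24 to 39 for iHLOs against adult liver, where fewer genes passed the filter without an adult library.

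Same-numbered libraries did not deviate together (correlations of -0.0433 to 0.0252 over 15 pairs of conditions). No pairing by number was thus seen, which does not show that there was none. A replicate block, which leaves out the library without a number, gave 1 call for the difference between the effects of iECs, and the same libraries without the block, an alternative chosen after seeing the data, also gave 1.

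At 1 CPM in both libraries, 3 genes were detected in MEFs, 3 in 2D-iHs, 3 in 2D-iHEs, 10 in iHLOs and 10 in fetal liver. More than 3 counts in at least 1 library gave 10 in 2D-iHs, and single libraries 6 to 10. With TMM library sizes the summed level was 25.7 in MEFs, 44.0 in 2D-iHs, 41.4 in 2D-iHEs, 264 in iHLOs, 39422 in adult liver and 131 in fetal liver. Without the top gene of each condition it was 9.13 CPM in MEFs, 17.3 in 2D-iHs, 17.3 in 2D-iHEs, 189 in iHLOs, 191 in iHEAs, 13742 in adult liver and 93.9 in fetal liver. Members under 3 counts per library cannot be told from 0 at this depth. The cause of these changes was not tested unless stated.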
